A study of Mus musculus with 8 samples.

Results

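The cytochrome P450 genes of the mouse were compared between embryonic fibroblasts, induced hepatocyte-like lines and primary hepatocytes on expression arrays. The genes were chosen by name: every gene with a symbol of Cyp followed by a digit on a probe set that carries a single gene symbol, leaving out the bile acid genes Cyp7a1, Cyp7b1, Cyp8b1 and Cyp27a1. This gave 64 genes of 17097 measured, each read from whichever of its probe sets was brightest on average. Of the 99 protein-coding Cyp genes that RefSeq lists for GRCm38.p6, 33 had no such probe set and were not analysed here.

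Cytochrome P450 enzymes are heme proteins that insert an oxygen atom into their substrates, and most sit in the endoplasmic reticulum, where a reductase hands them electrons. Families named Cyp1, Cyp2 and Cyp3 oxidise many drugs and foreign chemicals and are most abundant in the liver, Cyp4 and part of Cyp2 act on fatty acids and eicosanoids, and the remaining families make or clear sterols, steroid hormones, vitamin D and retinoic acid. Hepatocytes taken out of the liver are known to lose many drug-metabolising P450 transcripts in culture, and several members are induced by ligand-activated receptors such as Ahr, Nr1i2 and Nr1i3.

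Mouse embryonic fibroblasts (MEF, n = 2) came from C57/B6 embryos at day 13.5, and for MEF 1 the labels add that head and inner organs had been taken out. Primary hepatocytes (PH, n = 3) came from male C57/B6 mice of 8 to 10 weeks by collagenase perfusion and were then cultured in the hepatocyte medium. The induced lines (iHep, n = 3), at passage 10, were fibroblasts transduced with retroviruses and kept in the same medium, which holds dexamethasone. Hnf4a was given with Foxa3 in 4a3, with Foxa3, c-Myc and Klf4 in 4a3CK, and with Foxa1, c-Myc and Klf4 in 4a1CK, per the labels. The array's Hnf4a signal was raised in 4a3CK, at 9.59, but read 6.04 in the line labelled 4a3 and 5.50 in that labelled 4a1CK, near the 5.65 and 5.62 of MEF. Whether its probe set covers the retroviral transcript is not given in the labels. Each line is 1 array, so the spread of the iHep group includes the differences between factor sets. Nothing in the labels says that arrays of MEF or of PH stem from different animals, so each p-value reflects array-to-array spread that may be technical.

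Values are log2 signals, on which a difference of 1 is 2-fold. The array labelled PH without a number, called PH 3 here, stood apart: its median over genes was 5.80, against 4.93 to 5.06 on the other arrays, and its control probe sets that should bind no transcript had a median of 3.53, against 2.83 to 3.06. Within that range the lines stood at 3.03 to 3.06, and MEF, PH 1 and PH 2 at 2.83 to 2.88. The median of the 64 P450 genes was 5.03 on PH 3 and 3.75 to 4.12 elsewhere. PH 1 and PH 2 were close to each other: the SD of their difference over genes was 0.159, while that of the MEF pair was 0.57. The mean of 6 hepatocyte markers was 11.31 to 11.44 on PH arrays, 5.07 to 8.27 in the lines and 4.12 to 4.19 in MEF. These markers differed in 4a3, 4a3CK and 4a1CK: Apoa1 read 12.82, 12.66 and 10.39, Alb 9.30, 3.80 and 4.01, and Ambp 3.72, 3.64 and 3.73. In PH Apoa1 read 10.45, 10.24 and 9.35, and in MEF Ambp read 3.86 and 3.70. In 4a1CK the markers other than Apoa1 read 3.06 to 4.66. The mean of 6 fibroblast markers was 4.61 to 4.93 on PH arrays, 3.52 to 4.10 in the lines and 9.98 to 11.25 in MEF. The mean of 6 macrophage markers was 5.27 to 5.56 on PH arrays, 4.62 to 4.86 in the lines and highest in MEF, at 5.69 and 6.00. In this list Cd14 rose in PH over MEF, at 9.75, 10.29 and 9.10 against 6.36 and 5.88 (adjusted p = 0.0343, lost without any MEF or PH array), and Lyz2 and Adgre1 fell in both PH and the lines. Lyz2 read 8.54 and 9.28 in MEF 1 and 2, 3.46 to 3.57 in the lines and 4.26 to 4.97 in PH. Like the P450 gene Cyp1b1 it was highest in MEF, but Cyp1b1 was lower in MEF 2, at 9.18, than in MEF 1, at 11.13. Cd68, Csf1r and Clec4f were not called in any comparison, and Cd68 read 4.31 and 6.23 in MEF and 6.39 in 4a1CK. On PH arrays the mean of 5 bile duct markers was 5.86 to 6.00, of 5 stellate markers 4.14 to 4.53 and of 5 endothelial markers 4.16 to 5.13. The bile duct mean was 4.82 and 5.14 in MEF and 5.68 to 6.47 in the lines. Its members differed: in PH 1 to 3 Krt19 read 8.57, 8.29 and 6.32 and Sox9 7.81, 7.58 and 7.96. Krt7, Epcam and Cftr read 2.91 to 6.71 there. In 4a3, 4a3CK and 4a1CK Krt19 was higher, at 10.05, 10.85 and 10.70, against 4.97 and 6.03 in MEF. Sox9 read 5.39, 8.04 and 4.33 in these lines and 5.82 and 6.01 in MEF. The part of the cells that these lists mark in the P450 values was not tested.

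Most P450 genes were at similar low signals in all 3 cell types, and 12 of 64 passed the test in at least 1 comparison. A gene was called at an adjusted p under 0.05 (limma, Benjamini-Hochberg over 17097 genes) where the groups also differed by 1 or more. In PH against MEF 8 P450 genes rose, or 12.5%, where 3.37% of all genes were called higher, and 1 fell (1.56%), where 2.47% of all genes were called lower. After quantile normalization or subtracting array medians 5 P450 genes rose in PH. In iHep against MEF 1 rose (1.56%, against 1.98% of all genes) and 3 fell (4.69%, against 4.47%), so both shares were near those of all genes. In iHep against PH no P450 gene was called higher, where 1.49% of all genes were, although 1 was higher at an unadjusted p under 0.05, and 8 fell (12.5%, against 5.64% of all genes). The median difference of the 64 genes was 0.41 in PH over MEF (0.25 over all genes), 0.19 in iHep over MEF (0.16) and -0.29 in iHep over PH (-0.09). These comparisons share arrays and are not independent of each other. In these bulk samples fewer cells that express a gene and less of its RNA per cell cannot be told apart.

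**Figure D1:**
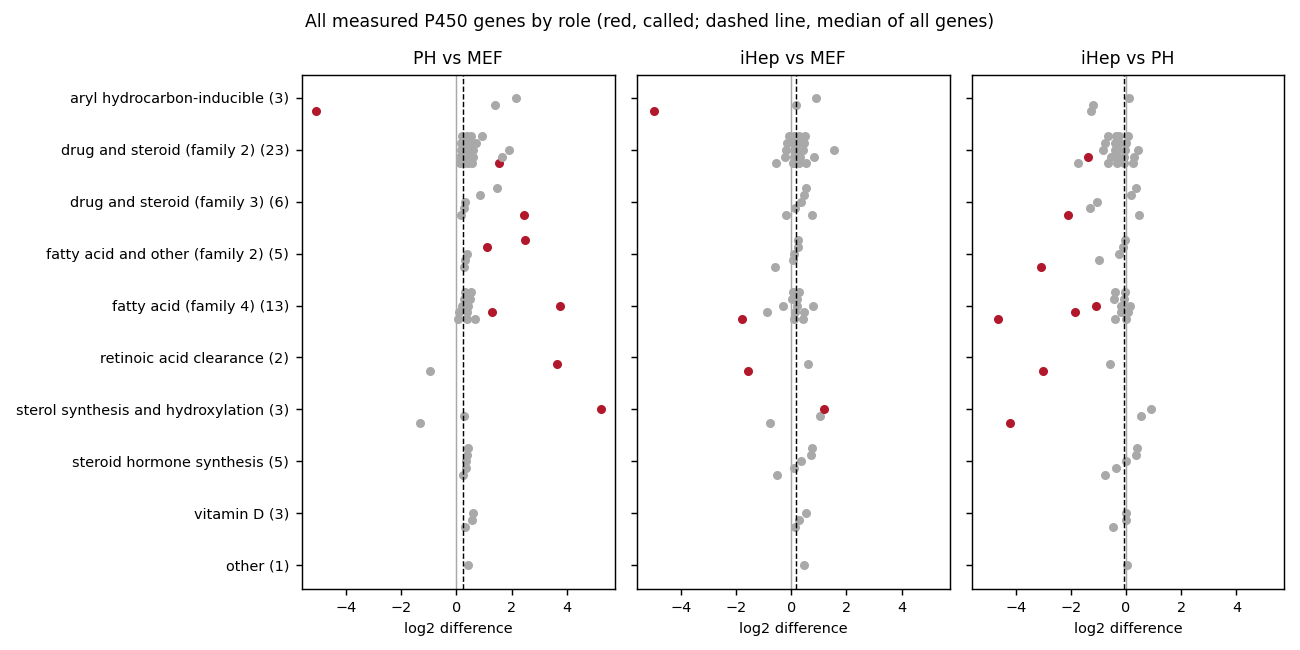
Log2 difference (horizontal axis) of each of the 64 measured P450 genes, grouped by role with the number of genes in brackets, in 3 comparisons. Red points were called, grey points were not, and the dashed line is the median of all genes; the largest difference upward is that of Cyp39a1 in PH against MEF (5.22) and the largest downward that of Cyp1b1 in the same comparison (-5.09).

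Whole separation of the arrays was a weaker standard. All PH arrays lay above both MEF arrays for 31 of 64 P450 genes (48.4%, against 30.1% of all genes) and below them for 2 (3.12%, against 7.9%). All lines lay above MEF for 37 (57.8%, against 42.6%) and below for 9 (14.1%, against 18.4%). The control probe sets also read higher in the lines (3.03 to 3.06) than in MEF (2.83 and 2.88). What this offset adds to the count was not tested. All lines lay below PH for 21 (32.8%, against 21.3%) and above for 1 (1.56%, against 5.04%), which was Cyp46a1. The higher level of PH 3 can enter each count that involves PH, and its part was not tested.

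Among enzymes that clear retinoic acid, Cyp26a1 was high in hepatocytes only. Its signal was 7.80, 7.78 and 7.40 in PH 1 to 3, 4.15 and 3.89 in MEF 1 and 2, and 4.69, 4.58 and 4.62 in 4a3, 4a3CK and 4a1CK, so that every PH array lay more than 2 above every other array. Cyp26a1 was higher in PH than in MEF by 3.64 ± 0.23 (SE, n = 3 and 2; adjusted p = 7.38e-05) and lower in iHep than in PH by a log2 difference of -3.03 ± 0.20 (SE, n = 3 and 3; adjusted p = 0.000111), while iHep minus MEF was 0.61 ± 0.23 (adjusted p = 0.168). On PH 3 it was not raised and was the lowest of the PH arrays. The related enzyme Cyp26b1 was highest in fibroblasts, at 6.24 and 6.45, against 5.18, 4.51 and 4.67 in the lines and 5.56, 5.36 and 5.22 in PH. It fell in the lines by 1.56 ± 0.27 (adjusted p = 0.0121), and PH minus MEF was -0.96 ± 0.27 (adjusted p = 0.08). The call in the lines was lost without MEF 1 (adjusted p = 0.0653) or MEF 2 (adjusted p = 0.0951).

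A start-site region of Cyp26a1 is shown because it holds the letters of a retinoic acid response element, through which retinoic acid receptors are known to induce this gene. The 250 bases before the RefSeq start site used here for Cyp26a1 (RefSeq, GRCm38.p6, chr19:37697558-37697807, plus strand) were searched on both strands for 2 copies of AGTTCA in the same direction, spaced by any 5 bases. The match, in capitals, is on the opposite strand and runs from 32 to 16 bases before the start. The gene as annotated begins at 37697738, so this start is not its outermost: the last 70 bases of the window, with the match, lie inside the annotated gene.
Cyp26a1: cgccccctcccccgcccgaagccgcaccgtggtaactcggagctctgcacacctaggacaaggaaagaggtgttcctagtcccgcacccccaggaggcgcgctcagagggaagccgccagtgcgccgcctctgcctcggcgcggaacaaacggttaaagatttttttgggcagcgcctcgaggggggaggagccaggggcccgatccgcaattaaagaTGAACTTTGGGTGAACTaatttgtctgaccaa
Of 32851 such windows of all genes, 7 (0.0213%) held these letters. Among 54 windows of 47 P450 genes that matched by gene ID, that of Cyp26a1 was the only match. Only this exact spelling was searched, so the shares do not show whether other windows hold other forms of the element. Of 9 measured genes of the retinoic acid axis, 2 rose and 3 fell in PH against MEF, 2 fell in iHep against MEF and 1 fell in iHep against PH. The shares over all genes were 3.37% higher and 2.47% lower in PH against MEF. They were 4.47% lower in iHep against MEF and 5.64% lower in iHep against PH. Crabp2, which carries retinoic acid to the nucleus, fell in PH by 3.36 ± 0.35 (adjusted p = 0.000692) and in the lines by 2.99 ± 0.35 (adjusted p = 0.00178). Of the retinoic acid-making dehydrogenases, Aldh1a1 and Aldh1a2 went opposite ways in PH against MEF. Aldh1a3 was not called in any comparison (PH minus MEF -0.15, adjusted p = 0.714). Aldh1a1 read 11.43, 11.38 and 11.92 in PH, 3.60 and 4.15 in MEF, and 3.77, 9.26 and 3.58 in 4a3, 4a3CK and 4a1CK. Aldh1a1 rose in PH by 7.70 ± 1.46 (adjusted p = 0.0161; lost without MEF 1, MEF 2, PH 1 or PH 3, at adjusted p = 0.0506 to 0.108) and was lower in iHep than in PH by -6.04 ± 1.30 (adjusted p = 0.0274; lost without any array of these groups except 4a3CK, at adjusted p = 0.0574 to 0.0869). The reductase Dhrs3 rose in PH by 2.11 ± 0.48 (adjusted p = 0.0389) and the binding protein Crabp1 fell by 6.90 ± 1.59 (adjusted p = 0.0398), both lost without any MEF or PH array. Crabp1 read 11.28 and 10.13 in MEF, 3.58 to 4.15 in PH, and 6.22, 11.06 and 4.28 in 4a3, 4a3CK and 4a1CK. Aldh1a2 fell by 1.25 ± 0.22 in PH (adjusted p = 0.0127), a call that failed without MEF 1 (adjusted p = 0.108) or MEF 2 (adjusted p = 0.0941), and also without PH 1 (adjusted p = 0.0562) or PH 2 (adjusted p = 0.0565).

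Of the sterol enzymes, Cyp39a1, which hydroxylates oxysterols on a minor route to bile acids, had the largest rise of the family. It read 9.04, 8.74 and 10.21 in PH 1 to 3, 4.42 and 3.80 in MEF 1 and 2, and 5.00, 4.30 and 6.11 in 4a3, 4a3CK and 4a1CK. The PH arrays lay above all others, and 4a1CK was the highest of the lines. Cyp39a1 rose in PH by 5.22 ± 0.58 (adjusted p = 0.00114) and was lower in iHep than in PH by a log2 difference of -4.19 ± 0.52 (adjusted p = 0.00246), while iHep minus MEF was 1.03 ± 0.58 (adjusted p = 0.363). The gene lies on chromosome 17 from 43667372 to 43751431 (GRCm38.p6).

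Cyp46a1, the cholesterol hydroxylase best known from neurons, was the only P450 gene called higher in the lines than in fibroblasts. Its signals were low throughout, at 5.06, 4.44 and 5.00 in 4a3, 4a3CK and 4a1CK, 3.70 and 3.61 in MEF, and 3.84, 3.80 and 4.15 in PH. It rose in the lines by 1.18 ± 0.26 over MEF (adjusted p = 0.0335), and iHep minus PH was 0.91 ± 0.23 (adjusted p = 0.0509). The first call failed without MEF 1 (adjusted p = 0.165) or MEF 2 (adjusted p = 0.198), and also without 4a3 (adjusted p = 0.129), 4a1CK (adjusted p = 0.108), PH 1 (adjusted p = 0.0634) or PH 2 (adjusted p = 0.0619). It was also lost with the deposition set as a block (1.10, adjusted p = 0.0648), within the set that holds all the lines (1.22, adjusted p = 0.128) and with each line as its own group (adjusted p = 0.0542). Cyp51, the lanosterol demethylase of cholesterol synthesis, was not called and split the fibroblast pair, at 8.54 in MEF 1 and 5.25 in MEF 2, with 5.77, 6.01 and 6.58 in the lines and 5.12, 4.80 and 6.78 in PH. It is named here after its values were seen.

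**Figure D2:**
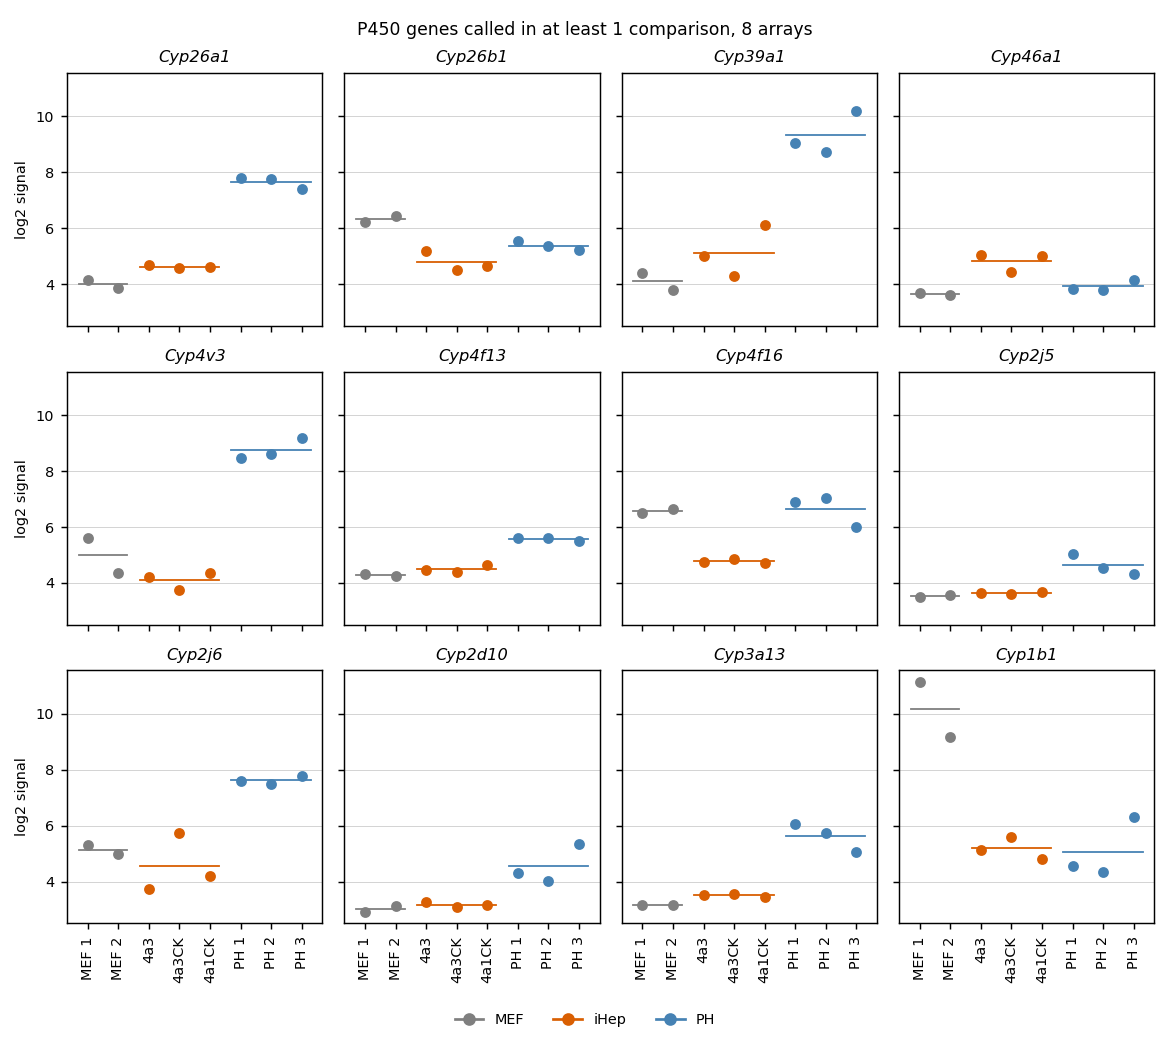
Log2 signal (vertical axis) of the 12 P450 genes called in at least 1 comparison on each of the 8 arrays, with a horizontal line at each group's mean. Cyp39a1, Cyp4v3 and Cyp26a1 are high on all PH arrays alone, Cyp1b1 is high on both MEF arrays alone, and Cyp4f16 is low in the 3 lines.

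Fatty acid hydroxylases of family Cyp4 were mostly low and flat. In PH against MEF 2 of 13 were called higher, where 3.37% of all genes were. In iHep against MEF 1 of 13 was called lower, where 4.47% of all genes were. In iHep against PH 3 of 13 were called lower, where 5.64% of all genes were. Cyp4v3 was the strongest of them, at 8.45, 8.61 and 9.19 in PH, 5.61 and 4.37 in MEF and 4.22, 3.74 and 4.35 in the lines. It rose in PH by 3.76 ± 0.41 (adjusted p = 0.00091) and was lower in iHep than in PH by a log2 difference of -4.65 ± 0.36 (adjusted p = 0.000211), the largest fall of any P450 gene in that comparison. iHep minus MEF was -0.89 ± 0.41 (adjusted p = 0.259). Its probe set can bind several transcripts, and its other probe set, at 4.71, 5.03 and 6.45 in PH and 3.04 to 3.28 on the other arrays, had the same order of groups.

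The Cyp4f genes, hydroxylases of leukotrienes and other eicosanoids, lie mostly in a cluster on chromosome 17, and its members had different patterns. Cyp4f13 (chromosome 17, 32924688 to 32947415) read 5.62, 5.61 and 5.51 in PH, 4.32 and 4.25 in MEF and 4.48, 4.38 and 4.63 in the lines. It rose in PH by 1.29 ± 0.20 (adjusted p = 0.00699) and was lower in iHep than in PH by a log2 difference of -1.08 ± 0.18 (adjusted p = 0.0101). The rise was lost without MEF 1 (adjusted p = 0.0606) or MEF 2 (adjusted p = 0.0711) and after quantile normalization (adjusted p = 0.0981). The fall was lost without 4a3 (adjusted p = 0.0599), PH 1 (adjusted p = 0.0512) or PH 2 (adjusted p = 0.051), and after quantile normalization it stood at -0.98, under the minimum difference. Cyp4f16 (chromosome 17, 32536545 to 32551798) was instead lost in the lines: it read 4.76, 4.85 and 4.71 there, 6.50 and 6.65 in MEF and 6.88, 7.02 and 6.00 in PH. The lines lay below every other array. Cyp4f16 fell by 1.80 ± 0.32 against MEF (adjusted p = 0.0136) and by 1.86 ± 0.28 against PH (adjusted p = 0.00623), and PH minus MEF was 0.06 ± 0.32 (adjusted p = 0.918). The call against MEF was lost without MEF 1 (adjusted p = 0.0774) or MEF 2 (adjusted p = 0.0945), and both calls narrowly missed after quantile normalization (adjusted p = 0.0528 and 0.0506). Both calls of Cyp4f16 and both of Cyp4f13 were also lost after subtracting array medians. The other 5 Cyp4f genes, Cyp4f14, Cyp4f15, Cyp4f18, Cyp4f39 and the pseudogene Cyp4f41-ps, were not called. Members of this subfamily are alike in sequence, and binding of 1 probe set by several of them was not tested.

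Of the arachidonic acid epoxygenases of subfamily Cyp2j, 2 of 4 rose in PH against MEF, where 3.37% of all genes did. Cyp2j6 read 7.60, 7.48 and 7.79 in PH, 5.30 and 4.99 in MEF, and 3.72, 5.74 and 4.20 in 4a3, 4a3CK and 4a1CK, so 4a3CK was above MEF and the other lines below. It rose in PH by 2.48 ± 0.52 (adjusted p = 0.0252) and was lower in iHep than in PH by a log2 difference of -3.07 ± 0.46 (adjusted p = 0.00601). The rise failed without MEF 1 (adjusted p = 0.111) or MEF 2 (adjusted p = 0.156), and also without PH 1 (adjusted p = 0.0754), PH 2 (adjusted p = 0.0666) or PH 3 (adjusted p = 0.0976) and after quantile normalization (adjusted p = 0.0648), although its size stayed at 2.22 or more in these fits. Cyp2j5 read 5.04, 4.53 and 4.32 in PH, 3.50 and 3.56 in MEF and 3.61 to 3.69 in the lines. It rose in PH by 1.10 ± 0.25 (adjusted p = 0.0411), a call lost without any single array except PH 3 (adjusted p = 0.06 to 0.237, and without PH 1 a difference of 0.89). iHep minus PH was -0.99 ± 0.23 (adjusted p = 0.0358), just under the minimum difference. The second probe set of Cyp2j5 read 3.73, 3.57 and 3.95 in PH and 3.45 and 3.48 in MEF, so the probe sets disagree in size.

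Of the drug- and steroid-oxidising genes, 23 of family Cyp2 and 6 of family Cyp3, 1 of each family was called, in both cases higher in hepatocytes. For comparison, 3.37% of all genes were called higher in PH than in MEF, and 5.64% lower in iHep than in PH. Cyp3a13, of the subfamily that oxidises the largest share of drugs, read 6.07, 5.74 and 5.04 in PH, 3.18 and 3.16 in MEF and 3.54, 3.56 and 3.45 in the lines. It rose in PH by 2.44 ± 0.30 (adjusted p = 0.00204) and was lower in iHep than in PH by a log2 difference of -2.10 ± 0.27 (adjusted p = 0.00304), with iHep minus MEF at 0.34 ± 0.30 (adjusted p = 0.566). Like Cyp26a1 it was not raised on PH 3. Cyp2d10 read 4.32, 4.04 and 5.34 in PH, 2.92 and 3.15 in MEF and 3.27, 3.09 and 3.16 in the lines, so that both the MEF and the line signals were close to the control probe sets of their arrays (2.83 to 3.06) and the differences are taken against a probe set near background. It rose in PH by 1.53 ± 0.37 (adjusted p = 0.0472) and was lower in iHep than in PH by a log2 difference of -1.39 ± 0.33 (adjusted p = 0.0385). The rise failed without MEF 1 (adjusted p = 0.263) or MEF 2 (adjusted p = 0.165), and also without 4a3 (adjusted p = 0.0745), 4a3CK (adjusted p = 0.0556), 4a1CK (adjusted p = 0.0653) or PH 1 (adjusted p = 0.0861), and the fall without the same arrays (adjusted p = 0.0618 to 0.107).

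**Figure D3:**
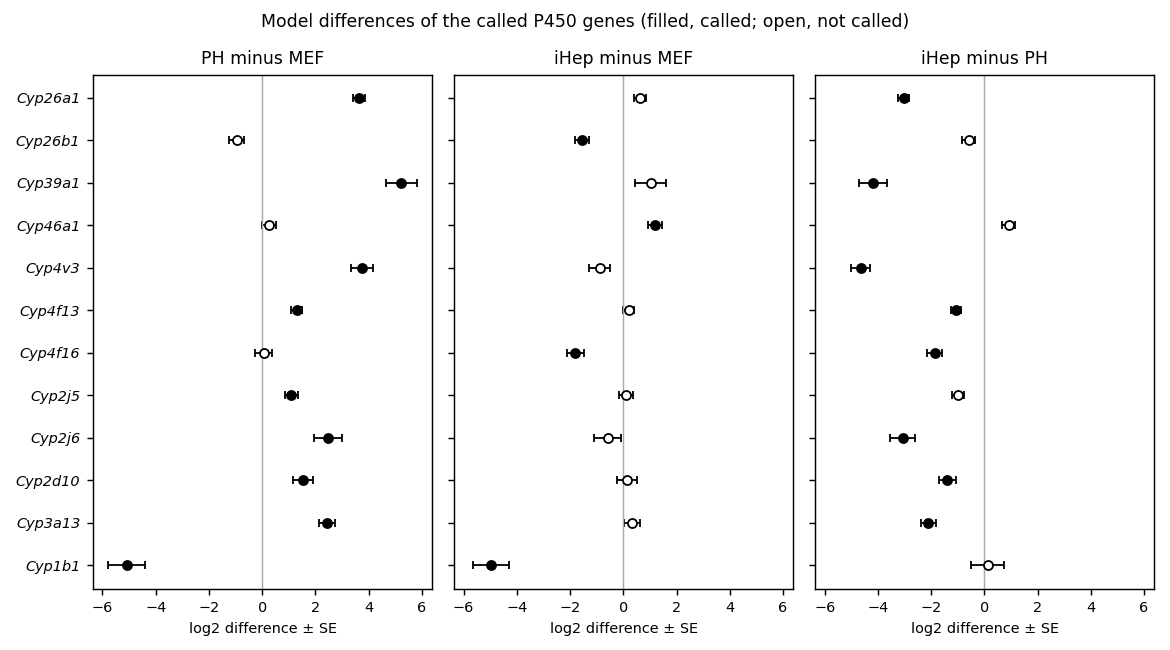
Model differences on the log2 scale (horizontal axis, bars are standard errors) of the 12 called P450 genes in 3 comparisons, filled where called and open where not. In the middle panel 1 gene, Cyp46a1, is called above 0 and 3 below it, and in the right panel all 8 called genes lie below 0.

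Cyp1b1, an Ahr-inducible enzyme that oxidises estrogens and is known from mesenchymal cells, was highest in fibroblasts. It read 11.13 and 9.18 in MEF 1 and 2, 5.14, 5.59 and 4.83 in 4a3, 4a3CK and 4a1CK, and 4.56, 4.36 and 6.29 in PH 1 to 3. Both MEF arrays lay far above all others. Cyp1b1 fell by 5.09 ± 0.69 in PH (adjusted p = 0.00314) and by 4.97 ± 0.69 in the lines (adjusted p = 0.00444), and iHep minus PH was 0.12 ± 0.62 (adjusted p = 0.962). By deposition set, PH minus MEF was -2.89 for PH 3 against MEF 2 and -6.68 for PH 1 and 2 against MEF 1. A second probe set, at 8.91 and 6.76 in MEF and 3.52 to 4.20 elsewhere, had the same order, while another, at 4.64 and 4.33 in MEF and 4.32 to 5.11 elsewhere, did not separate the groups. Fibroblast markers moved with Cyp1b1, as their levels above show.

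The other Ahr-inducible members were high on a single hepatocyte array. Cyp1a1, which oxidises polycyclic hydrocarbons, read 9.14 in PH 3 but 4.22 and 3.99 in PH 1 and 2, with 3.53 and 3.70 in MEF and 5.12, 4.00 and 4.40 in the lines. Cyp1a2, a liver enzyme of caffeine oxidation, read 6.79 in PH 3, 3.82 in both PH 1 and 2, and 3.29 to 3.64 on the other arrays. Neither was called in any comparison: PH minus MEF was 2.17 ± 1.33 for Cyp1a1 (adjusted p = 0.527) and 1.40 ± 0.79 for Cyp1a2 (adjusted p = 0.476). For Cyp1a1 that difference was 0.49 without PH 3 (adjusted p = 0.538). The receptor Ahr itself read 8.36, 8.34 and 9.78 in PH, 5.32 and 6.50 in MEF and 7.11, 4.49 and 5.75 in the lines. It was lower in iHep than in PH by a log2 difference of -3.04 ± 0.68 (adjusted p = 0.0318), a call lost without 4a1CK (adjusted p = 0.0699), PH 1 (adjusted p = 0.073), PH 2 (adjusted p = 0.0712) or PH 3 (adjusted p = 0.0607). Of 7 measured genes of the Ahr pathway it was the only one called in any comparison. Among all genes 5.64% were called lower in iHep than in PH. Aldh3a1, an Ahr-inducible dehydrogenase, was not called and differed between lines, at 6.22, 10.13 and 4.27 in 4a3, 4a3CK and 4a1CK against 3.27 to 4.00 in PH.

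Regions before start sites of Cyp1a1 (chr9:57697363-57697612, plus strand) and Cyp1b1 (chr17:79715062-79715311, minus strand; both RefSeq, GRCm38.p6) are shown for the core letters of the Ahr response element, GCGTG, searched on both strands. Capitals mark the match, which in Cyp1b1 is on the opposite strand and reads as its reverse complement. The Cyp1a1 window lies wholly inside the gene as annotated (chromosome 9, 57687928 to 57703824), before a start site within it, and the Cyp1b1 window lies outside its gene.
Cyp1a1: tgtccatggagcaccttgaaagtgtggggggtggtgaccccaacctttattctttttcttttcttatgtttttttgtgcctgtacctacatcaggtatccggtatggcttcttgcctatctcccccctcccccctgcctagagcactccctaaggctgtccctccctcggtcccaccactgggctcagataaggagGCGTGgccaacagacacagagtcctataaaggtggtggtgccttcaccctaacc
Cyp1b1: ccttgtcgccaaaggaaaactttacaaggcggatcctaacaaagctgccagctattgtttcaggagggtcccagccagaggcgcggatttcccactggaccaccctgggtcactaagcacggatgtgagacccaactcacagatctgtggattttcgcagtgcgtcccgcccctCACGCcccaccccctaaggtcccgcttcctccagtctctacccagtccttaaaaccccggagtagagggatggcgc
Each held a single match, from 54 to 50 bases before the start in Cyp1a1 and from 76 to 72 in Cyp1b1. These letters are common: 28.2% of all windows and 24.1% of the P450 windows held them, and that of Cyp1a2 did not.

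PH 3 also had the highest signals of several classic liver P450 genes. Taking PH 3 minus the mean of PH 1 and 2, 4 of 64 P450 genes (6.25%) differed by 2 or more, where 1.36% of all genes did. They were Cyp1a1 (5.03), Cyp3a11 (3.70), Cyp1a2 (2.97) and Cyp3a25 (2.63), named after their values were seen. The median of this difference was 0.86 for the P450 genes and 0.71 for all genes, and after subtracting array medians 3 of the 4 still differed by 2 or more, Cyp3a25 standing at 1.77. Cyp3a11, a main drug-oxidising P450 of mouse liver, read 8.63 in PH 3, 4.83 and 5.03 in PH 1 and 2, 4.66 and 4.75 in MEF and 4.92, 4.88 and 4.73 in the lines. Cyp3a25 read 5.97 in PH 3 and 3.09 to 3.50 on every other array. Cyp2c70, which makes the muricholic acids of mouse bile, read 8.33 in PH 3, 6.66 and 6.55 in PH 1 and 2, 5.28 and 5.23 in MEF, and 6.31, 4.96 and 5.01 in 4a3, 4a3CK and 4a1CK. Its differences were 1.92 ± 0.59 for PH minus MEF (adjusted p = 0.116) and -1.75 ± 0.53 for iHep minus PH (adjusted p = 0.0855), so it was not called although all PH arrays lay above all others. After subtracting array medians the second difference was called, at -1.56 (adjusted p = 0.0455). PH 3 was deposited in another set than PH 1 and 2, as its accession number shows, so the cell preparation and the set cannot be told apart.

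**Figure D4:**
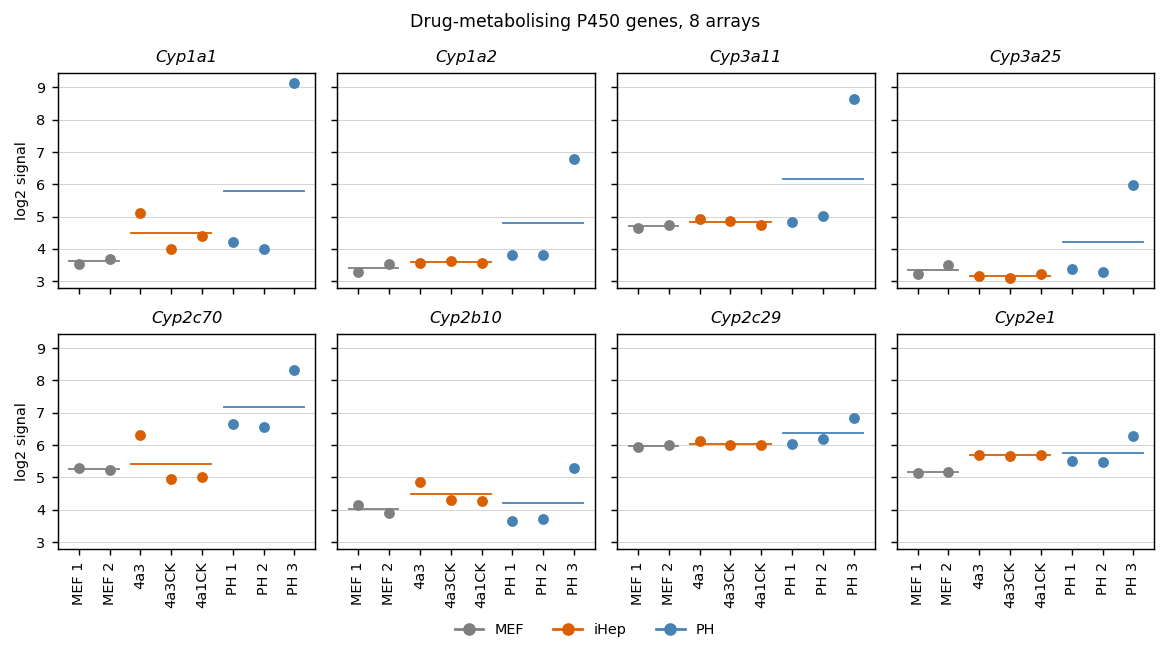
Log2 signal (vertical axis) of 8 drug-metabolising P450 genes on each of the 8 arrays, with a horizontal line at each group's mean. Cyp1a1, Cyp1a2, Cyp3a11 and Cyp3a25 are high on PH 3 alone, Cyp2b10 is highest there at 5.30, and Cyp2c29 and Cyp2e1 lie within a narrow range on all arrays.

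Cyp3a11 and Cyp2c70 are shown before their starts because each holds CAAAGTCCA, letters of an element bound by Hnf4a, which the labels list for every line. The windows are chr5:145879855-145880104 for Cyp3a11 and chr19:40187287-40187536 for Cyp2c70, both minus strand (RefSeq, GRCm38.p6). Both strands were searched for these letters and for the forkhead element TGTTTAC, and capitals mark the matches.
Cyp3a11: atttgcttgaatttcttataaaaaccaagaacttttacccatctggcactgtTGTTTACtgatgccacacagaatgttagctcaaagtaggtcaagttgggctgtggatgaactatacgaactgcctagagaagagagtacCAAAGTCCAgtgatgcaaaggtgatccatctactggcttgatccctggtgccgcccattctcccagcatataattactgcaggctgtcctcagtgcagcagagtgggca
Cyp2c70: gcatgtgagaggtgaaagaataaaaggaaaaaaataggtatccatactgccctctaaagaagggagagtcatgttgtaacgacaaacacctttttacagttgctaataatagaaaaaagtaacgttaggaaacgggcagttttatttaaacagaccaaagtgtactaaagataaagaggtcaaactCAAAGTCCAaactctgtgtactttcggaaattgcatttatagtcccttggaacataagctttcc
The Hnf4a letters lie from 109 to 101 bases before the start in Cyp3a11 and from 64 to 56 in Cyp2c70, and Cyp3a11 also holds the forkhead letters from 198 to 192. No matches overlap. The Hnf4a letters were found in 0.384% of all windows and in 4 of the 54 P450 windows (7.41%), those of Cyp2c70, Cyp3a11, Cyp3a16 and Cyp3a41a, genes of clusters that share ancestry. The forkhead letters were found in 3.17% of all windows and in 8 P450 windows (14.8%). None of these 4 genes was called in any comparison.

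Other well-known genes of liver drug metabolism were not called. The ethanol-inducible Cyp2e1 read 5.49, 5.48 and 6.28 in PH, 5.15 and 5.17 in MEF and 5.65 to 5.70 in the lines, and Cyp2c29 read 6.04, 6.20 and 6.85 in PH against 5.95 and 6.01 in MEF. The phenobarbital-inducible Cyp2b10 read 3.65, 3.71 and 5.30 in PH and 4.15 and 3.89 in MEF. None of the 4 Cyp2b, 8 Cyp2c, 2 Cyp2a and 3 Cyp4a genes was called in any comparison. For the Cyp4a genes, targets of Ppara that hydroxylate fatty acids, the signals ran from 3.02 to 5.18 in PH and from 2.92 to 4.07 in MEF. The 5 steroid hormone enzymes, Cyp11a1, Cyp11b1, Cyp11b2, Cyp17a1 and Cyp21a1, and the 3 vitamin D enzymes, Cyp24a1, Cyp27b1 and Cyp2r1, were not called either, with differences between PH and MEF from 0.23 to 0.43 and from 0.30 to 0.61.

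Between lines, differences of single arrays allow no test. A difference of 1 or more in either direction was found for 4 of 64 P450 genes (6.25%) between 4a3CK and 4a3, where 9.81% of all genes differed so, for 3 (4.69%, against 5.89%) between 4a1CK and 4a3, and for 3 (4.69%, against 10.7%) between 4a3CK and 4a1CK. A difference of 2 or more was found for Cyp2d22, at 6.56 in 4a1CK, 5.32 in 4a3 and 4.46 in 4a3CK, and for Cyp2j6, 2.02 higher in 4a3CK than in 4a3. The second probe set of Cyp2d22 gave 6.57, 4.44 and 3.53 in the same order. Cyp2d22 read 5.12, 5.08 and 6.35 in PH and 4.27 and 3.48 in MEF, and was not called (PH minus MEF 1.64 ± 0.62, adjusted p = 0.22; iHep minus MEF 1.57 ± 0.62, adjusted p = 0.198). Cyp3a16, Cyp3a41a and Cyp3a44 read 3.83, 4.03 and 4.56 in 4a3CK against 2.96, 2.93 and 3.66 in 4a3 and 2.99, 3.03 and 3.73 in 4a1CK. These low signals, picked after they were seen, come from close copies on chromosome 5 that the probe sets may not tell apart.

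Genes that serve P450 enzymes were described from lists. The counts here and in the next paragraph stand beside these shares of all genes. In PH against MEF 3.37% were called higher and 2.47% lower. In iHep against MEF the shares were 1.98% and 4.47%, and in iHep against PH 1.49% and 5.64%. The list named for electron donors had 5 measured genes, Cyb5a, Cyb5b, Cyb5r3, Fdx1 and Pgrmc1. The P450 reductase Por was not among them. Cyb5a, which passes electrons to many microsomal P450 enzymes, rose in PH by 1.92 ± 0.36 (adjusted p = 0.0151) and in the lines by 1.77 ± 0.36 (adjusted p = 0.0234), and the others were not called. Among those, mitochondrial Fdx1 differed by 1.98 ± 0.61 in PH over MEF (adjusted p = 0.116) and 2.42 ± 0.61 in iHep over MEF (adjusted p = 0.0541). Both Cyb5a calls were lost without MEF 1 (adjusted p = 0.0657 and 0.0926) or MEF 2 (adjusted p = 0.121 and 0.163), and that in the lines also without 4a3 (adjusted p = 0.0828) or 4a1CK (adjusted p = 0.064). Of 7 heme synthesis genes 2 rose in PH against MEF, none passed in iHep against MEF and 3 fell in iHep against PH, with median differences of 0.84, -0.24 and -0.86. Alad, the second enzyme of the heme pathway, read 7.82, 7.82 and 7.77 in PH, 6.19 and 6.40 in MEF and 4.78, 5.93 and 5.23 in the lines, and was lower in iHep than in PH by a log2 difference of -2.49 ± 0.29 (adjusted p = 0.00187). The rate-limiting enzyme Alas1 was lower in iHep than in PH by -1.32 ± 0.26 (adjusted p = 0.0193), lost without 4a3 (adjusted p = 0.0869), PH 1 (adjusted p = 0.0603) or PH 2 (adjusted p = 0.073). Of 4 heme breakdown genes 1 rose in PH, 1 fell in iHep against MEF and 2 fell in iHep against PH. Heme oxygenase Hmox1 was lower in iHep than in PH by -2.09 ± 0.41 (adjusted p = 0.0177), lost without 4a1CK (adjusted p = 0.0532).

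Of 9 receptors and factors that drive P450 genes, 2 rose in PH against MEF, none was called in iHep against MEF and 2 fell in iHep against PH, the same pair each time. Nr5a2, a nuclear receptor of sterol genes, read 7.10, 7.37 and 7.19 in PH, 4.42 and 4.43 in MEF and 4.79, 4.56 and 4.50 in the lines, with differences of 2.79 ± 0.21 (adjusted p = 0.000161) and -2.60 ± 0.19 (adjusted p = 0.000166). Cebpa, a liver transcription factor, differed by 2.18 ± 0.27 (adjusted p = 0.00202) and -1.57 ± 0.24 (adjusted p = 0.00697). Hnf4a read 9.54, 9.48 and 9.78 in PH and was not called (PH minus MEF 3.97 ± 1.01, adjusted p = 0.0585; iHep minus PH -2.56 ± 0.90, adjusted p = 0.138). The xenobiotic receptors were low, Nr1i2 at 4.43, 4.51 and 5.64 and Nr1i3 at 3.49, 3.37 and 5.03 in PH, against 4.18 and 4.18, and 3.53 and 3.29, in MEF. Of 8 epoxide, aldehyde and related oxidation genes 6 rose in PH against MEF and 3 in iHep against MEF, and 3 fell in iHep against PH. The epoxide hydrolase Ephx2, which opens the epoxides that Cyp2j enzymes make, rose by 3.92 ± 0.63 in PH (adjusted p = 0.00783) and by 4.14 ± 0.63 in the lines (adjusted p = 0.00725), both lost without MEF 2 (adjusted p = 0.0602 and 0.0507). The oxidase Aox1 and the flavin monooxygenase Fmo5 rose in PH by 2.80 ± 0.37 (adjusted p = 0.00281) and 3.01 ± 0.28 (adjusted p = 0.000446) and were lower in iHep than in PH by -2.43 ± 0.33 (adjusted p = 0.00383) and -2.12 ± 0.25 (adjusted p = 0.00204). The 4 bile acid P450 genes were not called in any comparison.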

How the data were processed

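Total RNA of 8 samples was measured on 8 expression arrays. The authors deposited log2 values for each probe set, and the submitters' processing notes name RMA and Partek, with no version stated in the sources at hand. RMA compresses low signals, and as deposited PH 3 was not on the level of the other arrays. Arrays carry no read depth, so their number limits precision. Of 45141 probe sets, those with 1 symbol gave 17097 genes.

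Group means of MEF, iHep and PH were fitted together over the 8 arrays (lmFit and eBayes, limma 3.58.1, R 4.3.3; 5 residual degrees of freedom), two-sided, with Benjamini-Hochberg adjustment over all genes, and was tested on simulated data. Plots used Python 3.11.15 and matplotlib 3.10.9. Named genes are all called members, members with 9 or more on any array or 2 or more apart between lines, the 3 largest differences not called per comparison, and up to 4 genes per list with the largest differences. Not all of the latter are named, and Aldh1a2, Nr1i2, Nr1i3 and other genes outside the rule were named after their values were seen. Promoter windows are RefSeq's for GRCm38.p6. The members, lists and motifs were chosen with earlier results of these data known. Alternatives were other scalings, probe set rules, groupings, deposition sets as blocks, the replicate block and leaving out each array. Protein sequences were not used here.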

Additional observations from a re-analysis of the deposited data

How the results depend on the processing

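The count of P450 genes called was 9 in PH over MEF, 4 in iHep over MEF and 8 in iHep over PH, and most alternatives kept it within 1.5 times. Quantile normalization and subtracting array medians each lowered the first count to 6, of which 5 were higher in PH. All genes called in that comparison then rose from 1000 to 1128 and 1153. Leaving out each iHep or PH array in turn gave 6 to 9, 3 to 4 and 6 to 11 P450 genes. Over all genes 686 to 1156, 564 to 1874 and 576 to 1806 were then called. Either MEF array lowered the first count to 5 and the second to 1, the remaining MEF array taking its spread from the other groups. The stricter threshold (adjusted p under 0.01, difference of 2) gave 5, 1 and 5, where 433, 324 and 295 of all genes were called. Within the deposition set that holds MEF 2, PH 3 and the lines the counts were 32, 2 and 24, with MEF and PH at 1 array each, the spread taken from the 3 unlike lines and PH 3 at its raised level; all genes called there were 3485, 492 and 2178, against 1000, 1103 and 1219. The set with MEF 1, PH 1 and PH 2 gave 12 P450 genes of 2263 called, with 1 MEF array and the spread taken from PH 1 and PH 2, which were nearly alike. Neither set's counts support a call. After subtracting array medians 1 P450 gene was called higher and 7 lower in iHep against PH, a total of 8. Only 6 of these were calls of the main fit, which called no P450 gene higher there. Cyp4f13 and Cyp4f16 lost the call, and Cyp2c70 was newly called lower. The difference of Cyp1a1 for iHep against PH turned to 0.40 without PH 3, at adjusted p = 0.391, the range over arrays left out being -2.17 to 0.40.

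Of 21 calls on single P450 genes, 9 held in every alternative and none reversed; of 426 refits 75 lost the call. MEF and PH share the numbers 1 and 2 in their titles. The replicate block on those 4 arrays gave 7 P450 genes for PH against MEF, where 900 of all genes were called. Cyp4v3 was then at adjusted p = 0.0634. The differences between numbers 1 and 2 correlated at -0.197 across genes between MEF and PH. This cannot decide whether the numbers pair the samples. PH 1 and PH 2 were nearly alike, and MEF 1 and MEF 2 belong to different deposition sets. A crossed block, chosen after seeing the data, gave 10, where 1307 of all genes were called. Of 36 calls in the partner lists 13 held without each array in turn. Signals near 3, the level of the control probe sets, give no order among genes.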
